A study of Mus musculus with 46 samples.

Results

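CD8 T cells sorted from the spleen of LMO2-transgenic mice were set against CD8 single-positive (CD8SP) thymocytes of mice with the same genotype, to show how transcripts differ between the peripheral cells and the thymic stage before them. The comparison takes every RNA library whose label names one of these 2 cell types in transgenic mice, which gave 3 splenic and 3 thymic libraries, 6 of 40 RNA libraries in a series of 46 samples. The series sets T-cell stages of transgenic and wild-type C57BL/6 mice side by side and adds LMO2 chromatin immunoprecipitation, which was not used here. The genotype is labelled hCD2-LMO2 knock-in, so that LMO2 is driven by elements of the human CD2 gene, which act in T cells and also in other lymphocytes. Both groups carry the transgene, and no splenic cells of wild-type mice are part of the design, so what LMO2 adds to a difference between spleen and thymus cannot be told apart from what the organs add. Levels in 3 wild-type CD8SP libraries are given beside the transgenic ones for description. The age and sex of the mice, the sorting gates and whether replicates came from separate animals are missing from the labels used here, and p values therefore measure the spread between these libraries, which may be partly technical.

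CD8SP thymocytes are the last thymic stage of the cytotoxic T-cell lineage. They descend from CD4 and CD8 double-positive (DP) cells, which recombine their T-cell receptor genes and express the RAG enzymes, and an immature CD8SP cell also exists as a dividing precursor of the DP stage. Cells that leave the thymus switch on KLF2, the sphingosine receptor S1PR1 and the homing receptor CCR7, rest in the spleen as naive cells under interleukin-7, and become memory or effector cells after stimulation by antigen or cytokines. LMO2 is a LIM-domain bridging protein of blood stem cells that normal T cells switch off, and its persistent expression is a known cause of T-cell leukaemia.

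The values are read counts per gene. Totals were 23502860, 17935725 and 22389778 counts in splenic CD8 replicates 1, 2 and 3, and 28820075, 24582638 and 22175226 counts in thymic CD8SP replicates 1, 2 and 3. Levels below are in CPM, counts scaled to library size with the TMM factor of edgeR, always in the order of replicates 1, 2 and 3. Of 19521 genes, 12185 had enough counts to be tested. A gene with almost no counts in a group was tested through the counts of the other group. It could only be called higher in that other group or stay uncalled. Such genes are part of the list counts and of the shares over all genes given below. Fold changes are on the log2 scale, splenic over thymic, with the standard error of the fit, and a gene is said to have risen or fallen where edgeR's quasi-likelihood test gave a p under 0.05 after Benjamini-Hochberg adjustment over all tested genes.

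Splenic replicate 1 stood apart from the other splenic libraries, with lower levels of T-cell genes and higher levels of B-cell and myeloid genes. Cd3e, a chain of the T-cell receptor complex, had 109.8, 645 and 652 CPM in splenic CD8 libraries, against 465, 457 and 530.4 CPM in thymic CD8SP libraries. Cd8a, a chain of the CD8 coreceptor, had 393, 1375 and 1362 CPM in splenic CD8 libraries, against 1584, 1039 and 2154 CPM in thymic CD8SP libraries. Both genes were lower in splenic replicate 1 than in any other transgenic library of the comparison, while splenic replicates 2 and 3 lay close to or within the thymic range. Ms4a1, the B-cell antigen CD20, had 648, 94.4 and 59 CPM in splenic CD8 libraries, against 0.408, 0.292 and 0.138 CPM in thymic CD8SP libraries. The B-cell gene was thus highest in splenic replicate 1 and was also above every thymic library in splenic replicates 2 and 3. Across genes, which are not independent replicates, log CPM correlated at 0.991 between splenic replicates 2 and 3 and at 0.903 and 0.897 between these and replicate 1. The correlation was 0.939 to 0.973 among thymic libraries and 0.660 to 0.792 between groups.

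Marker genes of other cell types were summed per library. The 16 B-cell markers summed to 19994, 6802 and 5445 CPM in splenic CD8 libraries, against 119, 2125 and 93.6 CPM in thymic CD8SP libraries and 262, 85.3 and 93.2 CPM in wild-type CD8SP libraries. Thymic replicate 2 had the highest thymic sum, but Ms4a1, given above, was not raised in that library. Which cells carried that sum was not tested. The 19 macrophage and monocyte markers summed to 6679.5, 733 and 623 CPM in splenic CD8 libraries, against 30.7, 252 and 50.9 CPM in thymic CD8SP libraries. The 12 granulocyte markers summed to 1125, 15.4 and 102 CPM in splenic CD8 libraries, against 0.17, 0.25 and 0.184 CPM in thymic CD8SP libraries, in all 3 of which S100a8, S100a9, Ngp, Camp, Ltf, Elane, Mpo, Retnlg and Ly6g had 0 counts. Markers of B cells, macrophages and granulocytes were therefore detected in all splenic libraries and were highest in replicate 1. In bulk RNA, fewer T cells in a sort and less T-cell RNA per cell cannot be told apart.

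Thymic libraries differed among themselves as well. Thymic replicate 3 was richest in genes of DP cells, since 24 such genes summed to 7776, 7249 and 17299.5 CPM in thymic CD8SP libraries, against 6932, 5174 and 12089.6 CPM in wild-type CD8SP libraries. Cd4, the coreceptor that a CD8SP sort should exclude, had 49.6, 3.12 and 3.81 CPM in splenic CD8 libraries, against 143, 155 and 1361 CPM in thymic CD8SP libraries. Thymic replicate 2 held transcripts of mast cells and early progenitors at higher levels than the other thymic libraries. The sums of B-cell and of macrophage markers, given above, were also highest there among thymic libraries. Cpa3, a mast-cell protease, had 0.453, 0.636 and 0.381 CPM in splenic CD8 libraries, against 3.16, 239 and 3.45 CPM in thymic CD8SP libraries, and Hhex, a homeobox gene of progenitors and B cells, had 70.4, 16.1 and 10.8 CPM in splenic CD8 libraries, against 1.05, 24.8 and 1.1 CPM in thymic CD8SP libraries. The count columns of splenic replicates 2 and 3 and of thymic replicate 2 carry a suffix N that the labels do not explain; a term for it gave 5232 called genes. Counts below are also given without splenic replicate 1, and calls that are lost without another single library are named. The part that other cell types or sorting played in the results was not tested.

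**Figure D1:**
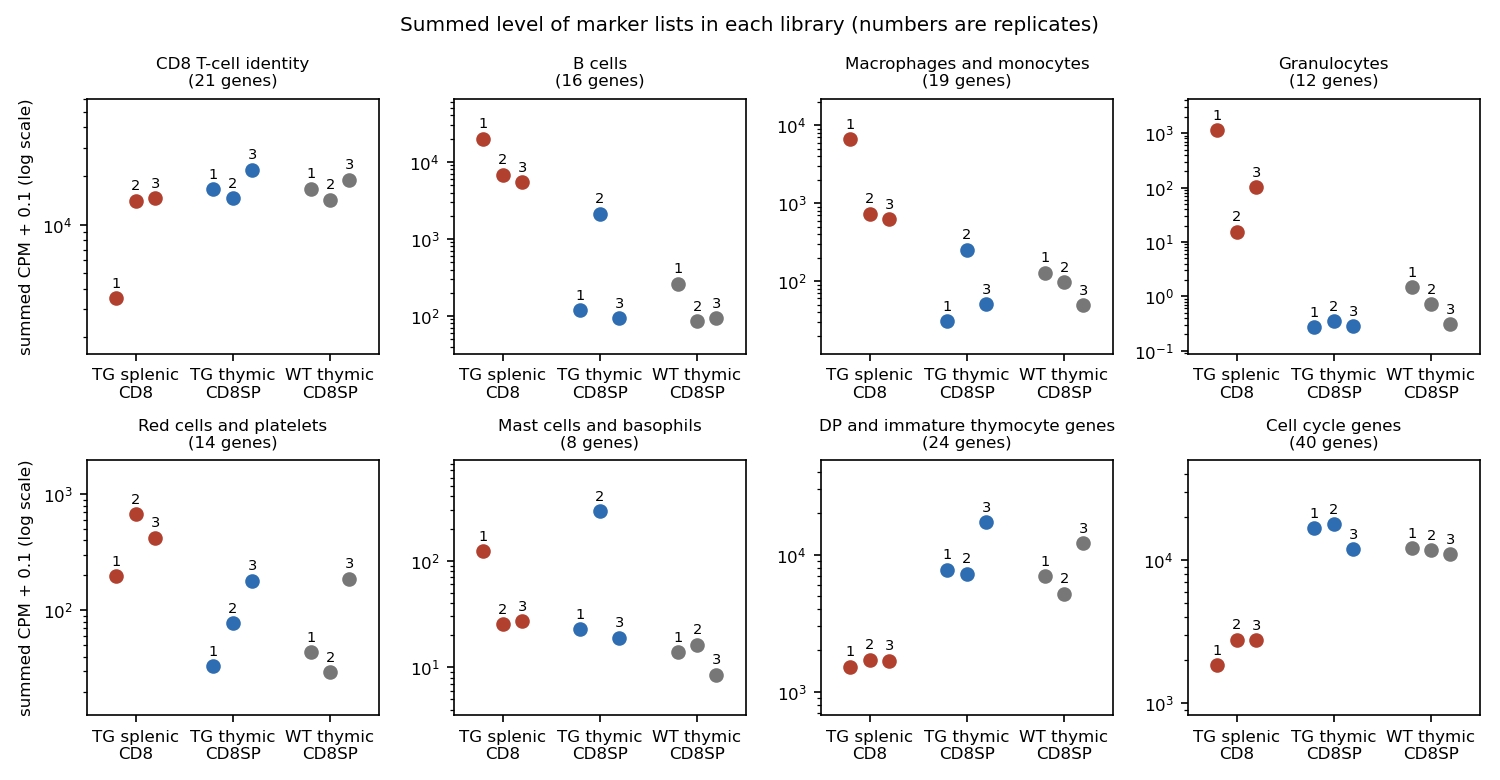
Each panel plots the summed CPM (log scale, 0.1 added) of a list of genes in each library, with transgenic (TG) splenic CD8 libraries at the left, TG thymic CD8SP in the middle and wild-type (WT) CD8SP at the right. Splenic replicate 1 lies lowest for T-cell identity and highest for B cells, macrophages and granulocytes, thymic replicate 2 is highest for mast cells, and thymic replicate 3 is highest for DP genes, while the cell cycle sums of splenic and thymic libraries do not overlap.

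Lmo2 itself did not pass the test. It had 82.4, 46.9 and 37.4 CPM in splenic CD8 libraries, against 40.02, 33.6 and 69.1 CPM in thymic CD8SP libraries, and 0.893, 0.291 and 0.25 CPM in wild-type CD8SP libraries. All transgenic libraries of both organs were above all wild-type ones, and the transgenic groups overlapped. The log2 fold change was 0.22 ± 0.39 (edgeR adjusted p = 0.677), and -0.17 without splenic replicate 1. Of the sorting genes, Cd3e had a log2 fold change of -0.05 ± 0.61 (edgeR adjusted p = 0.958) and Cd8a one of -0.61 ± 0.52 (edgeR adjusted p = 0.387), both with overlapping groups. Cd8b1, the other CD8 chain, had 262, 1499 and 1608 CPM in splenic CD8 libraries, against 671, 449 and 1592 CPM in thymic CD8SP libraries, and its log2 fold change was 0.31 ± 0.75 (edgeR adjusted p = 0.763). Without splenic replicate 1 and thymic replicate 3 together, Cd3e and Cd8b1 rose, with log2 fold changes of 0.49 and 1.47 (edgeR adjusted p = 0.0172 and 0.00753), and Cd8a was at 0.06. Cd4 fell, with a log2 fold change of -4.87 ± 1.55 (edgeR adjusted p = 0.0478), a call that was lost when any 1 library other than splenic replicate 1 was left out. The Cd4 call was also lost with DESeq2 size factors, library totals, no filter on low counts or a replicate block. DESeq2, a fit of all RNA libraries and the term for the suffix N kept it. The Cd4 value was -7.31 without splenic replicate 1, -4.25 without splenic replicate 3 and -2.99 without thymic replicate 3.

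In all, 2099 genes rose in splenic CD8 cells (17.2% of those tested) and 2447 fell (20.1%), 37.3% together. Of these, 1834 rose and 1720 fell by at least 2-fold, and the median log2 fold change of all tested genes was -0.03. The groups did not overlap for 26.1% of tested genes that were higher and 30.4% that were lower in spleen. Without splenic replicate 1, 2413 genes rose and 2941 fell (19.6% and 23.8% of 12338 tested), and 4220 of the 4546 calls were made again in the same direction. No called gene changed direction without that library. The balance of higher and lower genes depended on the method, with 2245 higher and 2213 lower under DESeq2 size factors, 2735 and 2691 with DESeq2, and 4229 and 3493 in a fit of all RNA libraries. Leaving out thymic replicate 3 as well as splenic replicate 1 gave 2891 higher and 3433 lower genes (23.7% and 28.1%). Without thymic replicate 1, 1081 rose and 1545 fell, and 1354 rose without thymic replicate 3. Those that fell numbered 1511 without thymic replicate 2, 1461 without splenic replicate 2 and 1419 without splenic replicate 3. Calls made in all 6 fits that each left out 1 library numbered 893 for higher and 1257 for lower genes. Among called genes that rose, splenic replicate 1 was above both other splenic libraries in 1196, below both in 789 and between them in 114.

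**Figure D2:**
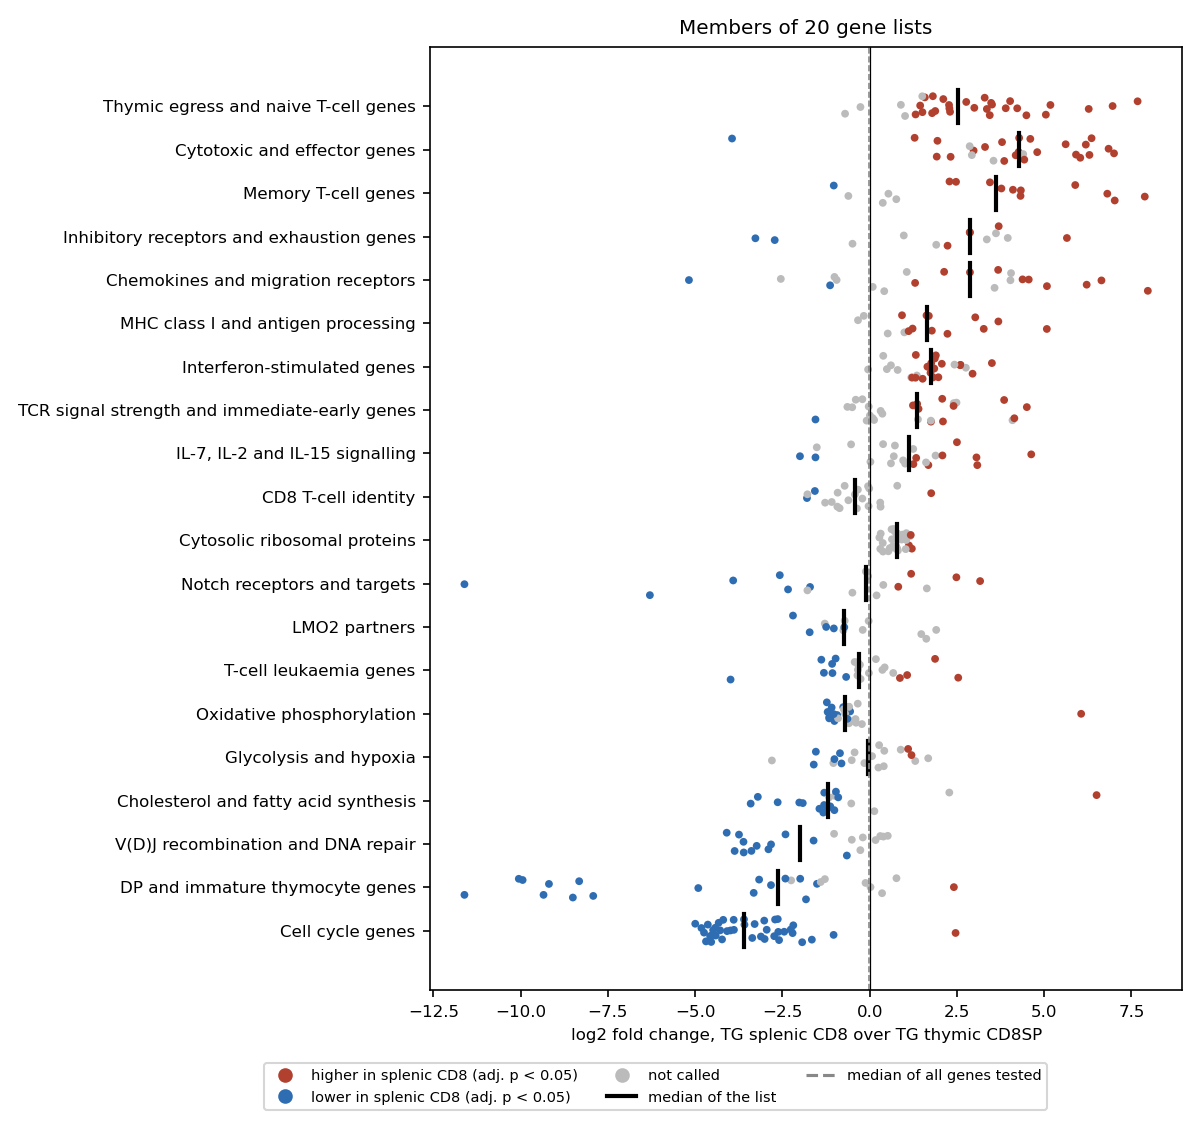
Each point is a tested member of a gene list at its log2 fold change, transgenic splenic CD8 over thymic CD8SP, red where it rose, blue where it fell and grey where it was not called, with a black bar at the median of the list. Lists of thymic egress and cytotoxic genes lie to the right, with medians of 2.54 and 4.27, and those of DP and cell cycle genes to the left, with medians of -2.62 and -3.60.

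Transcripts of receptor gene assembly were low in splenic CD8 libraries. Of 24 genes of DP and immature thymocytes, 16 fell, 1 rose and 7 were not called, against 20.1% of all genes that fell, and their median log2 fold change was -2.62. Without splenic replicate 1, 18 fell and 1 rose. Some members, among them Ptcra, Aqp11 and Arpp21, had enough counts only through the thymic libraries, so they could only fall or stay uncalled. Of the 16 that fell, 13 were called in all 6 fits that left out 1 library, and 14 had a wild-type CD8SP mean between the transgenic group means, as did 2018 of the 2447 genes that fell in all. Rag1, one of the enzymes that cut receptor genes, had 6.6, 0.463 and 0.571 CPM in splenic CD8 libraries, against 1200.2, 676 and 5879 CPM in thymic CD8SP libraries. The highest splenic value was that of replicate 1, yet it was still below every thymic value by a wide margin. Rag1 had a log2 fold change of -9.95 ± 1.68 (edgeR adjusted p = 0.00628), and its partner Rag2 one of -9.35 ± 1.41 (edgeR adjusted p = 0.00446). These were -12.26 for Rag1 and -13.98 for Rag2 without splenic replicate 1, without splenic replicate 3 they were -9.36 and -8.69, and without thymic replicate 3 they were -8.49 and -8.05. Dntt, the enzyme that adds bases at receptor gene joints, had 5.36, 3.24 and 3.57 CPM in splenic CD8 libraries, against 974, 1225 and 1726 CPM in thymic CD8SP libraries. Its log2 fold change was -8.33 ± 0.42 (edgeR adjusted p = 0.000496), without overlap.

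Ptcra, the surrogate alpha chain of the pre-T-cell receptor, had the largest decrease of all named genes. It had 1 count in all splenic libraries together and 4762 counts in the thymic ones, a thymus-to-spleen ratio of 4107 with a 95% counting interval of 737 to 162238. Intervals of this kind cover counting error only. Sox4, a transcription factor of immature thymocytes, had 15, 5.03 and 6.001 CPM in splenic CD8 libraries, against 244, 234 and 309 CPM in thymic CD8SP libraries and fell, with a log2 fold change of -4.91 ± 0.49 (edgeR adjusted p = 0.00118), and -5.56 without splenic replicate 1. Ccr9, the receptor that holds thymocytes to the thymic chemokine CCL25, had 68.5, 60.6 and 47.2 CPM in splenic CD8 libraries, against 279.5, 197 and 776 CPM in thymic CD8SP libraries. Splenic and thymic values of both genes did not overlap, and Ccr9 had a log2 fold change of -2.83 ± 0.55 (edgeR adjusted p = 0.00987), and -2.03 without thymic replicate 3. Cd9, a tetraspanin that B cells also carry, was the member that rose, a call lost without thymic replicate 3.

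Other large decreases were in genes less tied to receptor assembly. Among them were Acan, Nwd1, Arpp21, Syt13, Gfra1, Fbln2, Aqp11 and Smo. Aqp11, an intracellular aquaporin, had 0.49, 0.116 and 0.19 CPM in splenic CD8 libraries, against 106, 145 and 254 CPM in thymic CD8SP libraries, and Arpp21, an RNA-binding protein, had 0.868, 0.116 and 0.0952 CPM in splenic CD8 libraries, against 369, 383 and 515 CPM in thymic CD8SP libraries. Smo, the signal transducer of the Hedgehog pathway, had 0.981, 0.347 and 0.0952 CPM in splenic CD8 libraries, against 219.6, 281 and 176 CPM in thymic CD8SP libraries. None of these groups overlapped, and the log2 fold changes were -9.19 ± 0.64 (edgeR adjusted p = 0.000537), -10.06 ± 0.80 (edgeR adjusted p = 0.000666) and -8.81 ± 0.73 (edgeR adjusted p = 0.000705). They were -10.02 for Aqp11, -11.90 for Arpp21 and -10.02 for Smo without splenic replicate 1, and -8.22 for Smo without splenic replicate 3. Gfra1, a receptor of glial growth factors, had 0.302, 0 and 0 CPM in splenic CD8 libraries, against 149.997, 116 and 67.3 CPM in thymic CD8SP libraries, with 35.6, 39.4 and 26.2 CPM in wild-type CD8SP libraries. Fbln2, a matrix protein, varied more among thymic libraries, with 75.1, 0.918 and 178 CPM, and its call was lost without splenic replicate 3. Of the 12 largest decreases, 11 had a wild-type CD8SP mean of at least 10 CPM.

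Cell division genes fell almost without exception. Of 40 cell cycle genes, 39 fell and 1 rose, against 20.1% and 17.2% of all genes. Their median log2 fold change was -3.60. The same 39 and 1 were counted without splenic replicate 1, with a median of -4.02, and all 39 decreases were called in each of the 6 fits that left out 1 library. Rrm2, the regulated subunit of the enzyme that makes deoxynucleotides, had 26.3, 24.6 and 18.9 CPM in splenic CD8 libraries, against 739, 732 and 505 CPM in thymic CD8SP libraries. The splenic values lay close together and the log2 fold change was -4.82 ± 0.27 (edgeR adjusted p = 0.000496). Mki67, the proliferation marker Ki-67, had 159, 71.6 and 49.96 CPM in splenic CD8 libraries, against 1118, 1658 and 628 CPM in thymic CD8SP libraries, and it fell, with a log2 fold change of -3.60 ± 0.58 (edgeR adjusted p = 0.00538), and -4.22 without splenic replicate 1. Ccnb2, a cyclin of mitosis, had 10.6, 10.1 and 7.76 CPM in splenic CD8 libraries, against 223, 203 and 146 CPM in thymic CD8SP libraries; Plk1, a kinase of mitosis, had 10.9, 11.5 and 7.86 CPM in splenic CD8 libraries, against 217, 258 and 174 CPM in thymic CD8SP libraries. Neither gene's groups overlapped, and the log2 fold changes were -4.33 ± 0.26 (edgeR adjusted p = 0.000497) and -4.42 ± 0.26 (edgeR adjusted p = 0.000497). Birc5, which attaches chromosomes to the spindle and blocks cell death, had a log2 fold change of -4.23 ± 0.24 (edgeR adjusted p = 0.000496).

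Cyclins of the first growth phase moved in opposite directions. Ccnd3, the cyclin D needed for expansion of thymocytes before the DP stage, had 158, 464 and 502 CPM in splenic CD8 libraries, against 1897, 1688 and 1810.3 CPM in thymic CD8SP libraries, and fell, with a log2 fold change of -2.26 ± 0.45 (edgeR adjusted p = 0.0108). Ccnd2, the cyclin D of mature lymphocytes, had 273, 763 and 824 CPM in splenic CD8 libraries, against 171, 81.4 and 85 CPM in thymic CD8SP libraries and rose, with a log2 fold change of 2.46 ± 0.51 (edgeR adjusted p = 0.0128), a call that was lost without thymic replicate 3. In wild-type CD8SP libraries the levels were 935, 760.4 and 1204 CPM for Ccnd3 and 597, 569.98 and 284 CPM for Ccnd2, between the transgenic group means in each case.

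Promoters of the cell cycle genes that fell can be read for the box that the factor NF-Y binds. In the 250 bases before the start site, the letters CCAAT, searched on both strands, were found in 24 of the 33 genes that fell and had a promoter sequence (72.7%), against 34.5% of 27025 promoters. The longer site TTTCCCGC of E2F factors was in 3 of these 33 (9.09%), against 0.929% of promoters. The promoters of Rrm2, which acts in DNA synthesis, and Ccnb2, which acts in mitosis, are printed to show how the boxes lie, with matches in capitals; they come from RefSeq on build GRCm38.p6, at chr12:24708004-24708253 on the plus strand for Rrm2 and chr9:70421555-70421804 on the minus strand for Ccnb2.
Rrm2: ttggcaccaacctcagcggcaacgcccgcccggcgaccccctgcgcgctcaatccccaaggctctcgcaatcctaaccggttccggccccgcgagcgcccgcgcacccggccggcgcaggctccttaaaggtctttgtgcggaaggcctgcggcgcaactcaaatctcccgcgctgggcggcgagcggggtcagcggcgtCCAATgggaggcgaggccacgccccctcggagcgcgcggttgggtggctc
Ccnb2: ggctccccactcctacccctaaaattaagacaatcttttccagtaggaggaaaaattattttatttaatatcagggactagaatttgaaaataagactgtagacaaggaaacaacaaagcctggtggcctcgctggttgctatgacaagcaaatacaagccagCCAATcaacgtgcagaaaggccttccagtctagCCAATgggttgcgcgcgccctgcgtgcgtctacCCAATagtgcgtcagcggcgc
Rrm2 held 1 match and Ccnb2 held 3 that do not overlap. A match is a description of the letters and not of a bound site.

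Genes of receptor gene recombination and DNA repair fell in part. Of 20 genes, 12 fell and 8 were not called, against 20.1% of all genes that fell. Without splenic replicate 1, 11 fell, against 23.8%. Lig4, the ligase that seals receptor gene joints, had 11.5, 7.63 and 6.57 CPM in splenic CD8 libraries, against 95.6, 96.8 and 123 CPM in thymic CD8SP libraries and fell, with a log2 fold change of -3.62 ± 0.28 (edgeR adjusted p = 0.000604). Xrcc6, the Ku70 protein of end joining, had 31.8, 48.4 and 50.8 CPM in splenic CD8 libraries, against 493, 756 and 667 CPM in thymic CD8SP libraries, and had a log2 fold change of -3.87 ± 0.29 (edgeR adjusted p = 0.000597). Its partner Xrcc5, with 25.8, 41.3 and 43.6 CPM in splenic CD8 libraries, against 53.6, 41.1 and 32.2 CPM in thymic CD8SP libraries, was not called, with a log2 fold change of -0.20 ± 0.28 (edgeR adjusted p = 0.613).

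Genes of thymic egress and naive T cells rose as a group. Of 32 such genes, 27 rose and none fell, against 17.2% of all genes that rose, with a median log2 fold change of 2.54. Without splenic replicate 1, 27 rose with a median of 2.77, and 16 of the 27 were called in all 6 fits that left out 1 library. Splenic replicate 1 was below both other splenic libraries for 27 of the 32. Defining members are given first. Klf2, the factor that switches on egress receptors, had 294, 769 and 853 CPM in splenic CD8 libraries, against 92.1, 47.5 and 31.8 CPM in thymic CD8SP libraries. S1pr1, the egress receptor, had 289, 588 and 505 CPM in splenic CD8 libraries, against 51.2, 22.1 and 19.3 CPM in thymic CD8SP libraries. Il7r, the receptor subunit for the survival cytokine of naive cells, had 187, 937 and 881 CPM in splenic CD8 libraries, against 34.1, 47.1 and 25.8 CPM in thymic CD8SP libraries. In all 3 genes, splenic replicate 1 was the lowest splenic library and still lay above every thymic one. The log2 fold changes were 3.48 ± 0.57 (edgeR adjusted p = 0.00584), 3.90 ± 0.50 (edgeR adjusted p = 0.00263) and 4.23 ± 0.66 (edgeR adjusted p = 0.00506).

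Wild-type CD8SP cells lay between the transgenic groups for these genes. Their levels were 197, 206 and 122 CPM of Klf2, 109.9, 168 and 87.5 CPM of S1pr1 and 133, 139.6 and 85.1 CPM of Il7r. The same held for the mean of 24 of the 27 genes that rose, as for 1589 of the 2099 genes that rose in all. Ccr7, the receptor that guides naive cells into T-cell zones, had 174, 409 and 355 CPM in splenic CD8 libraries, against 54.7, 30.4 and 32.1 CPM in thymic CD8SP libraries, and rose, with a log2 fold change of 2.999 ± 0.41 (edgeR adjusted p = 0.00324). Bcl2, the survival protein, had 167, 308 and 311 CPM in splenic CD8 libraries, against 64.6, 24.1 and 26.7 CPM in thymic CD8SP libraries and rose, with a log2 fold change of 2.77 ± 0.48 (edgeR adjusted p = 0.00658). Dapl1, a gene of naive CD8 cells, had 16.5, 67.4 and 60.8 CPM in splenic CD8 libraries, against 0.204, 0.543 and 0.413 CPM in thymic CD8SP libraries, and its log2 fold change was 6.96 ± 0.73 (edgeR adjusted p = 0.00139). Cd52, a small surface glycoprotein of lymphocytes, was even across the splenic libraries, with 619, 569 and 619 CPM in splenic CD8 libraries, against 124, 97.8 and 149 CPM in thymic CD8SP libraries, and rose, with a log2 fold change of 2.28 ± 0.22 (edgeR adjusted p = 0.001). Cd55, an inhibitor of complement, had 359, 119.8 and 106 CPM in splenic CD8 libraries, against 1.02, 1.25 and 0.551 CPM in thymic CD8SP libraries and rose, with a log2 fold change of 7.68 ± 0.71 (edgeR adjusted p = 0.001), and 6.89 without splenic replicate 1.

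Not every gene of the naive state moved. Lef1, a partner of TCF-1, had 131, 552 and 503 CPM in splenic CD8 libraries, against 814, 463 and 657 CPM in thymic CD8SP libraries, and its log2 fold change was -0.71 ± 0.53 (edgeR adjusted p = 0.33). Itgae, the CD103 integrin, had 47.3, 47.3 and 55.5 CPM in splenic CD8 libraries, against 96.5, 47.4 and 36.4 CPM in thymic CD8SP libraries, and its log2 fold change was -0.26 ± 0.37 (edgeR adjusted p = 0.595). Klf3, Txnip and Ly6c1 were not called either, with log2 fold changes of 0.89, 1.51 and 1.01. Among the genes of T-cell identity, 1 of 21 rose, 2 fell and 18 were not called, against 17.2% of all genes that rose and 20.1% that fell. Splenic replicate 1 was below both other splenic libraries in 20 of the 21, and without it 2 rose and 5 fell. Without both splenic replicate 1 and thymic replicate 3, 8 rose and 5 fell.

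The 3 identity genes that were called are transcription factors. Runx3, the factor of CD8 lineage choice, had 162, 362 and 406 CPM in splenic CD8 libraries, against 102, 109 and 63.1 CPM in thymic CD8SP libraries, and rose, with a log2 fold change of 1.76 ± 0.40 (edgeR adjusted p = 0.0163); the call was lost without thymic replicate 1 or 3. Runx1 had 75.4, 59.98 and 52 CPM in splenic CD8 libraries, against 194, 168 and 194 CPM in thymic CD8SP libraries and fell, with a log2 fold change of -1.57 ± 0.20 (edgeR adjusted p = 0.00239). Bcl11b, which commits precursors to the T lineage, had 77, 278 and 268 CPM in splenic CD8 libraries, against 728, 574 and 862 CPM in thymic CD8SP libraries, and fell, with a log2 fold change of -1.80 ± 0.49 (edgeR adjusted p = 0.0304), a call lost when any 1 thymic library or splenic replicate 3 was left out. Tcf7, which encodes TCF-1, had 339, 1849 and 1906 CPM in splenic CD8 libraries, against 4454, 4225 and 5422 CPM in thymic CD8SP libraries. It was not called with all libraries, at a log2 fold change of -1.78 ± 0.63 (edgeR adjusted p = 0.0639), and was called without splenic replicate 1, at -1.32 (edgeR adjusted p = 0.00288).

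**Figure D3:**
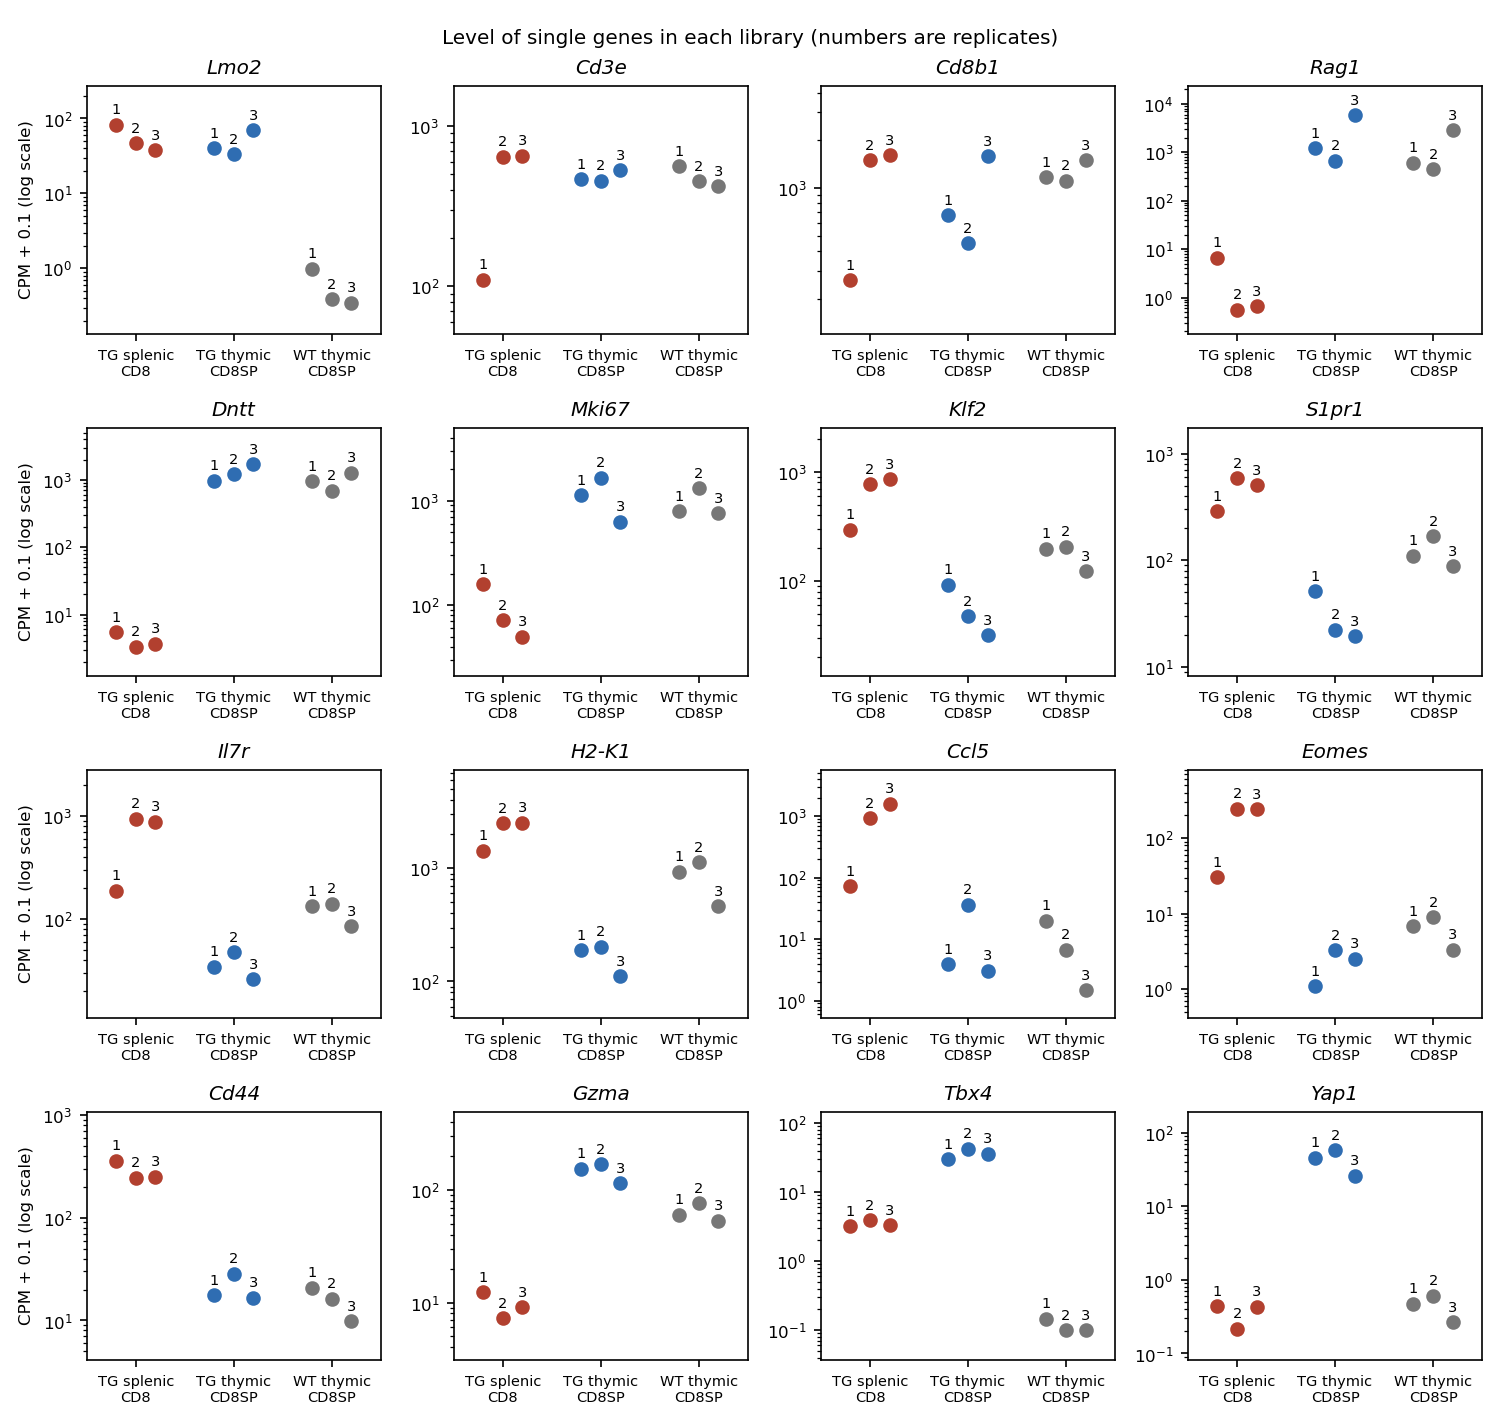
Each panel plots the CPM (log scale, 0.1 added) of a gene in each library, with transgenic (TG) splenic CD8 at the left, TG thymic CD8SP in the middle and wild-type (WT) CD8SP at the right; numbers mark replicates. Rag1, Dntt, Mki67, Gzma, Tbx4 and Yap1 lie lower in every splenic than in every transgenic thymic library, Klf2, S1pr1, Il7r, H2-K1, Ccl5, Eomes and Cd44 lie higher in every splenic one, and Lmo2, Cd3e and Cd8b1 overlap between the transgenic groups.

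Effector and memory genes rose alongside those of naive cells. Of 27 cytotoxic and effector genes, 22 rose, 1 fell and 4 were not called, with a median log2 fold change of 4.27. Of all genes, 17.2% rose and 20.1% fell. Without splenic replicate 1 the counts of the list were again 22 and 1. Without thymic replicate 1, 12 rose, and without thymic replicate 3, 14 rose. Splenic replicate 1 was the lowest splenic library for 19 of the 27. Eomes, the T-box factor of memory CD8 cells, had 30.1, 244 and 243 CPM in splenic CD8 libraries, against 0.986, 3.17 and 2.43 CPM in thymic CD8SP libraries. Tbx21, which encodes T-bet, had 17.9, 171 and 176 CPM in splenic CD8 libraries, against 1.87, 4.01 and 1.56 CPM in thymic CD8SP libraries. Both were far higher in splenic replicates 2 and 3 than in replicate 1, which itself lay above every thymic library. They rose, with log2 fold changes of 6.30 ± 0.97 (edgeR adjusted p = 0.0048) and 5.62 ± 0.97 (edgeR adjusted p = 0.00676), in all 6 fits that left out 1 library. Prf1, the pore-forming protein perforin, had 23.6, 171 and 167 CPM in splenic CD8 libraries, against 5.75, 4.59 and 6.39 CPM in thymic CD8SP libraries, and Gzmm, a granzyme, had 3.96, 75.8 and 61.5 CPM in splenic CD8 libraries, against 0.612, 0.793 and 0.505 CPM in thymic CD8SP libraries. Their log2 fold changes were 4.43 ± 0.76 (edgeR adjusted p = 0.00658) and 6.19 ± 1.12 (edgeR adjusted p = 0.00796).

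Ccl5, a chemokine that memory CD8 cells store, had 72.3, 922 and 1591 CPM in splenic CD8 libraries, against 3.81, 36.1 and 2.99 CPM in thymic CD8SP libraries. Its groups did not overlap, the thymic library with the highest level was replicate 2, and the log2 fold change was 5.91 ± 1.55 (edgeR adjusted p = 0.0268). The call was lost without thymic replicate 1 or 3 or splenic replicate 2 or 3. Gzma, the granzyme of innate-like lymphocytes, was the member that fell, with 12.3, 7.11 and 9.001 CPM in splenic CD8 libraries, against 154, 169 and 115 CPM in thymic CD8SP libraries and a log2 fold change of -3.94 ± 0.29 (edgeR adjusted p = 0.000537). Its wild-type CD8SP level was 60.4, 76.4 and 53.1 CPM. Gzmb, Gzmk, Ifng and Zeb2 were not called, with log2 fold changes of 2.87, 2.93, 4.40 and 3.55.

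Receptors that CD8 cells share with natural killer (NK) cells rose too. Klrd1, the CD94 chain, had 35.8, 67 and 66.1 CPM in splenic CD8 libraries, against 2.48, 2.3 and 1.24 CPM in thymic CD8SP libraries, and rose, with a log2 fold change of 4.80 ± 0.41 (edgeR adjusted p = 0.000771). Klrg1, a receptor of late effector cells, stayed low, at 1.47, 1.04 and 2.1 CPM in splenic CD8 libraries, against 1 count in the thymic ones, a ratio of 117 with a counting interval of 20.5 to 4671. Of 13 tested NK and innate lymphoid markers, 11 rose, 1 fell and 1 was not called. Of all genes, 17.2% rose and 20.1% fell. Ncr1, Klra8 and Klra3 had 1, 1 and 3 counts in the thymic libraries together. They had enough counts only through the splenic libraries, so they could only rise or stay uncalled. Without splenic replicate 1, 10 of the 13 markers rose and 1 fell, and 7 rose without thymic replicate 1. The sum of these markers over 15 genes was 447, 396 and 409 CPM in splenic CD8 libraries, against 163, 204 and 125 CPM in thymic CD8SP libraries. Gzma, given above, made up most of each thymic sum and was the member that fell. Tyrobp and Fcer1g are also among the macrophage markers. Ncr1, which defines NK cells, had 3.21, 1.33 and 0.81 CPM in splenic CD8 libraries, against 1 count in the thymic ones. Whether NK cells took part in the increase of shared receptors was not tested. Counts of the Klra genes are uncertain, since members of that family share much of their sequence.

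Among 16 memory genes, 11 rose, 1 fell and 4 were not called, against 17.2% of all genes that rose and 20.1% that fell. Without splenic replicate 1, 12 rose and 1 fell. Cd44, the adhesion receptor that marks antigen-experienced and memory-like T cells, had 358, 247 and 252 CPM in splenic CD8 libraries, against 17.6, 28.5 and 16.5 CPM in thymic CD8SP libraries. All splenic libraries were far above all thymic ones, and the log2 fold change was 3.77 ± 0.31 (edgeR adjusted p = 0.000705). The highest level was that of splenic replicate 1, where B-cell and myeloid markers were highest too. Which cells carried the increase of Cd44 was not tested. The wild-type CD8SP level of Cd44 was 20.7, 16.2 and 9.76 CPM. Il18r1, a subunit of the interleukin-18 receptor, had 50.7, 264 and 284 CPM in splenic CD8 libraries, against 1.46, 2.42 and 0.689 CPM in thymic CD8SP libraries, and its partner Il18rap had 42, 154 and 181 CPM in splenic CD8 libraries, against 0.85, 2.3 and 0.184 CPM in thymic CD8SP libraries. They rose, with log2 fold changes of 7.02 ± 0.88 (edgeR adjusted p = 0.00248) and 6.81 ± 1.01 (edgeR adjusted p = 0.00423), and 7.94 for Il18rap without thymic replicate 2. Il2rb, the subunit shared by the receptors of interleukin-2 and interleukin-15, had 209, 1969 and 2180.4 CPM in splenic CD8 libraries, against 77.2, 97.9 and 42.6 CPM in thymic CD8SP libraries, and Cxcr3, the chemokine receptor of memory and effector cells, had 29.4, 309.96 and 304 CPM in splenic CD8 libraries, against 1.12, 9.44 and 0.276 CPM in thymic CD8SP libraries. Both lay lowest among splenic libraries in replicate 1. They rose, with log2 fold changes of 4.32 ± 0.90 (edgeR adjusted p = 0.0128) and 5.89 ± 1.51 (edgeR adjusted p = 0.0249). The call of Il2rb was lost without thymic replicate 1 or 3, and that of Cxcr3 without those or without splenic replicate 2 or 3. Cxcr5, the receptor of B cells and follicular T cells, had the largest fold change of this list, at 7.88 ± 0.55 (edgeR adjusted p = 0.000537), with 283, 150.3 and 104 CPM in splenic CD8 libraries, against 0.782, 0.96 and 0.505 CPM in thymic CD8SP libraries, and was highest in splenic replicate 1. Id3, an inhibitor of E proteins that early memory cells keep, had 21.7, 44.2 and 32.1 CPM in splenic CD8 libraries, against 58.9, 63 and 78.3 CPM in thymic CD8SP libraries, and fell, with a log2 fold change of -1.03 ± 0.29 (edgeR adjusted p = 0.0324), a call lost when any 1 thymic library or splenic replicate 3 was left out.

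**Figure D4:**
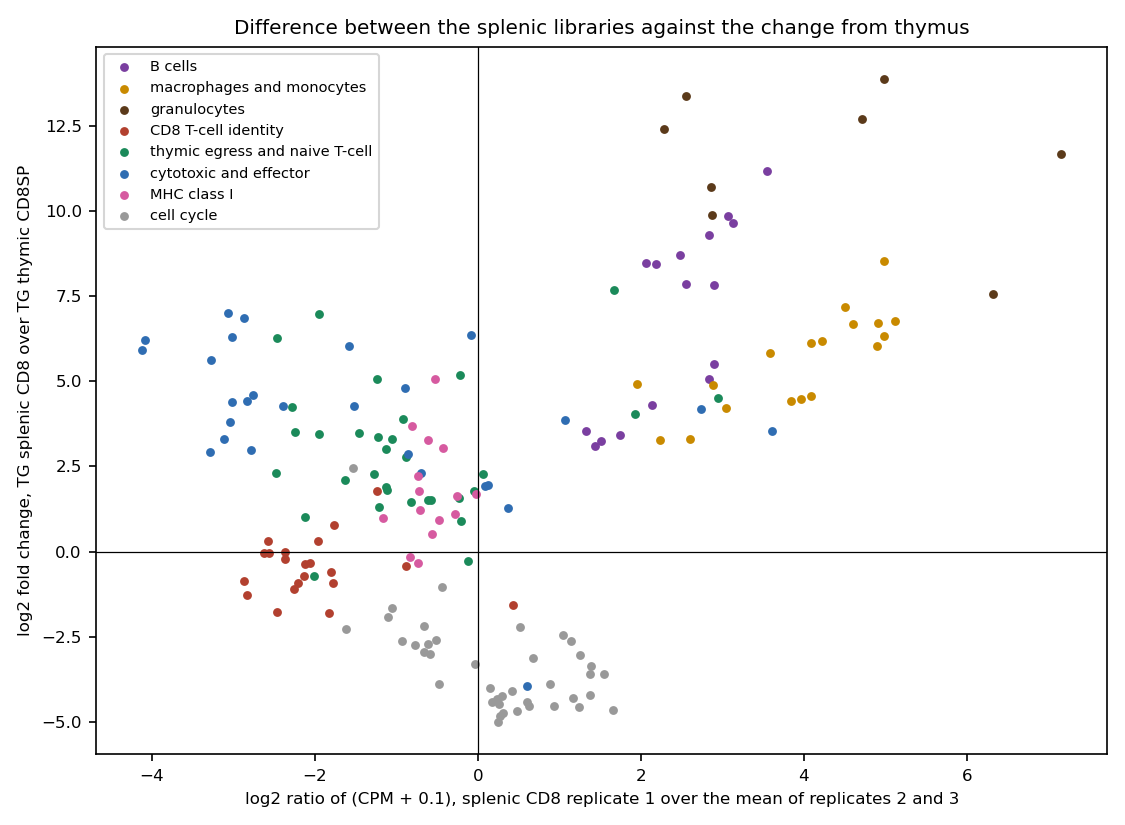
Each point is a tested member of a list, with the log2 ratio of splenic CD8 replicate 1 over the mean of splenic replicates 2 and 3 (CPM with 0.1 added) on the x axis and the log2 fold change, splenic CD8 over thymic CD8SP, on the y axis. B-cell, macrophage and granulocyte markers lie to the right of zero, 20 of 21 T-cell identity genes and most egress and cytotoxic genes lie to its left, and members above the horizontal line were higher in spleen.

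Inhibitory receptors moved in both directions. Of 13 genes, 5 rose, 2 fell and 6 were not called, against 17.2% of all genes that rose and 20.1% that fell. Without splenic replicate 1, 7 rose and 2 fell. Leaving out any 1 thymic library or splenic replicate 2 left 1 that fell. Pdcd1, which encodes the receptor PD-1, had 1.17, 2.14 and 4.19 CPM in splenic CD8 libraries, against 13.5, 20.04 and 15.9 CPM in thymic CD8SP libraries. It was low in every splenic library and its log2 fold change was -2.72 ± 0.51 (edgeR adjusted p = 0.00897). Lag3, a receptor for MHC class II, had 23.8, 13.4 and 20.1 CPM in splenic CD8 libraries, against 1.19, 3.55 and 3.12 CPM in thymic CD8SP libraries and rose, with a log2 fold change of 2.87 ± 0.49 (edgeR adjusted p = 0.00636). Vsir, the checkpoint protein VISTA, had 243, 479.8 and 475 CPM in splenic CD8 libraries, against 84.4, 58.4 and 112 CPM in thymic CD8SP libraries, and rose, with a log2 fold change of 2.23 ± 0.37 (edgeR adjusted p = 0.00574). Havcr2, Tigit and Cd160 were not called, with log2 fold changes of 3.36, 0.98 and 1.91. Cd38, an ectoenzyme that B cells and macrophages also carry, was highest in splenic replicate 1, with 163, 34.1 and 22.3 CPM in splenic CD8 libraries, against 1.87, 1.63 and 0.827 CPM in thymic CD8SP libraries.

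Migration receptors other than those of naive cells also changed. Of 21 tested, 10 rose and 2 fell, against 17.2% of all genes that rose and 20.1% that fell, with 12 and 4 without splenic replicate 1, and 5 rose without thymic replicate 1. S1pr5, a sphingosine receptor of effector and NK cells, had 8.45, 7.69 and 8.43 CPM in splenic CD8 libraries, against 2 counts in the thymic ones, a ratio of 310 with a counting interval of 85.3 to 2563. Gpr183, an oxysterol receptor that places lymphocytes in the spleen, had 77.5, 140.3 and 132 CPM in splenic CD8 libraries, against 4.45, 4.88 and 5.51 CPM in thymic CD8SP libraries and rose, with a log2 fold change of 4.56 ± 0.30 (edgeR adjusted p = 0.000537). Gpr18 had 89.2, 119 and 99.8 CPM in splenic CD8 libraries, against 9.69, 8.31 and 5.97 CPM in thymic CD8SP libraries and rose, with a log2 fold change of 3.68 ± 0.26 (edgeR adjusted p = 0.000537). Ccr4, the receptor that draws positively selected thymocytes into the medulla, had 0.868, 0.347 and 1.14 CPM in splenic CD8 libraries, against 29.8, 20.9 and 36.2 CPM in thymic CD8SP libraries. It was low in every splenic library, and its log2 fold change was -5.18 ± 0.50 (edgeR adjusted p = 0.00104).

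Most MHC class I genes rose in splenic cells. Of 15 class I and antigen-processing genes, 11 rose and none fell, against 17.2% of all genes that rose and 20.1% that fell. Without splenic replicate 1, 13 rose, and 10 of the 11 were called in all 6 fits that left out 1 library. H2-K1, a classical class I heavy chain, had 1437, 2515 and 2536 CPM in splenic CD8 libraries, against 189.5, 203 and 111 CPM in thymic CD8SP libraries. H2-D1, the other classical chain, had 1526, 2325 and 2340.1 CPM in splenic CD8 libraries, against 238, 241 and 163 CPM in thymic CD8SP libraries. Their groups did not overlap, the lowest splenic library was replicate 1, and the log2 fold changes were 3.69 ± 0.38 (edgeR adjusted p = 0.0013) and 3.27 ± 0.30 (edgeR adjusted p = 0.001). Wild-type CD8SP cells had 935, 1134 and 463 CPM of H2-K1, between the transgenic groups, as held for all 11 genes that rose and for 1589 of the 2099 that rose in all. B2m, the light chain, had 1893, 3024 and 3292 CPM in splenic CD8 libraries, against 505, 764 and 482 CPM in thymic CD8SP libraries and rose, with a log2 fold change of 2.23 ± 0.33 (edgeR adjusted p = 0.00429). Nlrc5, the activator of class I genes, had 214, 272 and 306 CPM in splenic CD8 libraries, against 45.5, 29.9 and 21.9 CPM in thymic CD8SP libraries, and rose, with a log2 fold change of 3.03 ± 0.32 (edgeR adjusted p = 0.0014). H2-Q8, a nonclassical chain, had 18.3, 24.2 and 23.2 CPM in splenic CD8 libraries and 0 counts in all 3 thymic ones, so it was at least 548-fold higher against a floor of 3 counts over the group. Class I genes resemble each other, and reads may be divided among them, so single members are uncertain. Psmb8 and Tap2, which cut and carry peptides, were not called, with log2 fold changes of -0.17 and -0.33.

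Many interferon-stimulated genes rose as well. Of 26 tested, 17 rose and none fell, against 17.2% of all genes that rose and 20.1% that fell. The median was 1.75, and 17 rose without splenic replicate 1. Irf7, which amplifies interferon production, had 112, 76.4 and 101 CPM in splenic CD8 libraries, against 27.9, 22.2 and 18.9 CPM in thymic CD8SP libraries, and Irf9, a subunit of the interferon-activated factor ISGF3, had 129, 138 and 144 CPM in splenic CD8 libraries, against 41.9, 34.7 and 46.1 CPM in thymic CD8SP libraries. Their groups did not overlap, and they rose, with log2 fold changes of 2.07 ± 0.24 (edgeR adjusted p = 0.00173) and 1.74 ± 0.17 (edgeR adjusted p = 0.00117). Isg15, among the genes most sensitive to interferon, had 13.1, 7.46 and 15.2 CPM in splenic CD8 libraries, against 9.49, 6.14 and 9.79 CPM in thymic CD8SP libraries, with overlapping groups and a log2 fold change of 0.49 ± 0.36 (edgeR adjusted p = 0.318). In wild-type CD8SP libraries Isg15 had 24.8, 23.2 and 14.4 CPM, and the wild-type mean lay between the transgenic groups for 14 of the 17 genes that rose, against 1589 of the 2099 that rose in all. Oas1a, which makes an RNase activator in response to double-stranded RNA, had 31.1, 15.6 and 14.8 CPM in splenic CD8 libraries, against 2.01, 1.34 and 2.07 CPM in thymic CD8SP libraries, and rose, with a log2 fold change of 3.50 ± 0.42 (edgeR adjusted p = 0.00211). Gbp3, a guanylate-binding protein, had 53.4, 31.1 and 30.8 CPM in splenic CD8 libraries, against 7.79, 6.18 and 4.96 CPM in thymic CD8SP libraries, and rose, with a log2 fold change of 2.61 ± 0.32 (edgeR adjusted p = 0.00223).

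The interferon response element, with the letters TTTC, any 2 letters and TTTC again on either strand, was in 5 of 12 promoters of interferon-stimulated genes that rose (41.7%) and in 3 of 10 of the class I genes that rose (30%), against 3.04% of 27025 promoters. The promoters of Oas1a and Gbp3 are printed to show an element close to the start and one farther from it, with matches in capitals; they come from RefSeq on build GRCm38.p6, at chr5:120907526-120907775 on the minus strand for Oas1a and chr3:142559794-142560043 on the plus strand for Gbp3.
Oas1a: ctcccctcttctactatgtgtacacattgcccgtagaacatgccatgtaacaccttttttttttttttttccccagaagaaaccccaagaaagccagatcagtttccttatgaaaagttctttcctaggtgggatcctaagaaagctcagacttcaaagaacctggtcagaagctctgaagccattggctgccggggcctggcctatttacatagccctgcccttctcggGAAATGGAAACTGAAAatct
Gbp3: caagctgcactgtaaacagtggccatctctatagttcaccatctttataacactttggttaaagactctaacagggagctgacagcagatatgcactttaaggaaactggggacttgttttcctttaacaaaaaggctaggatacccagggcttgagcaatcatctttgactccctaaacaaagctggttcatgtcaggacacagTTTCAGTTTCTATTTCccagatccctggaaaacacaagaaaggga
Each held 2 matches that overlap and are written as 1 run, and in Oas1a they lie on the strand opposite to the printed one.

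Genes of early receptor response rose in part. Of 27 tested, 10 rose, 1 fell and 16 were not called, against 17.2% of all genes that rose and 20.1% that fell. In all, 11 rose without splenic replicate 1, and 6 rose without thymic replicate 3. Junb, an AP-1 subunit, had 157, 240.5 and 375 CPM in splenic CD8 libraries, against 55, 68.4 and 59.4 CPM in thymic CD8SP libraries, and rose, with a log2 fold change of 2.08 ± 0.33 (edgeR adjusted p = 0.0053). Ier5 had 169, 146 and 134 CPM in splenic CD8 libraries, against 41.9, 45.5 and 45.4 CPM in thymic CD8SP libraries and rose, with a log2 fold change of 1.76 ± 0.16 (edgeR adjusted p = 0.001). Nr4a1, which reports receptor signal strength, had 106, 41.3 and 123 CPM in splenic CD8 libraries, against 81.9, 107 and 98 CPM in thymic CD8SP libraries, and Egr1 had 45.5, 59.8 and 74.3 CPM in splenic CD8 libraries, against 94.3, 45.2 and 140.2 CPM in thymic CD8SP libraries, and both groups overlapped. Their log2 fold changes were -0.09 ± 0.39 (edgeR adjusted p = 0.875) and -0.64 ± 0.42 (edgeR adjusted p = 0.261).

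Genes of cytokine receptor pathways moved in both directions. Of 22 genes of the interleukin-7, -2 and -15 and related pathways, 8 rose, 2 fell and 12 were not called, against 17.2% of all genes that rose and 20.1% that fell; 11 rose and 3 fell without splenic replicate 1, and between 3 and 4 rose without thymic replicate 1 or without splenic replicate 2 or 3. Il6ra, the interleukin-6 receptor, had 123, 164 and 163 CPM in splenic CD8 libraries, against 8.33, 6.43 and 3.35 CPM in thymic CD8SP libraries and rose, with a log2 fold change of 4.63 ± 0.38 (edgeR adjusted p = 0.000705). Tgfbr2, a receptor of TGF-beta that restrains naive cells, had 329.6, 467 and 435 CPM in splenic CD8 libraries, against 113, 64.8 and 112 CPM in thymic CD8SP libraries, and rose, with a log2 fold change of 2.09 ± 0.28 (edgeR adjusted p = 0.00317). The signal transducers Stat5a and Stat5b fell, with 58.4, 96.2 and 97.2 CPM in splenic CD8 libraries, against 241, 415 and 349 CPM in thymic CD8SP libraries for Stat5a. Their log2 fold changes were -1.998 ± 0.30 (edgeR adjusted p = 0.00443) and -1.55 ± 0.21 (edgeR adjusted p = 0.00325).

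Most genes of sterol and fatty acid synthesis fell in splenic cells. Of 20 genes of cholesterol and fatty acid synthesis, 14 fell, 1 rose and 5 were not called. Of all genes, 20.1% fell and 17.2% rose. Without splenic replicate 1, 16 genes of the list fell and 1 rose. Scd2, a fatty acid desaturase, had 145, 101 and 113 CPM in splenic CD8 libraries, against 1098, 1101 and 1114 CPM in thymic CD8SP libraries. The thymic values were nearly equal, the splenic ones lay far below, and the log2 fold change was -3.21 ± 0.22 (edgeR adjusted p = 0.000537). In wild-type CD8SP libraries Scd2 had 444, 527 and 507 CPM, and the wild-type mean was between the transgenic groups for all 14 genes that fell, against 2018 of the 2447 that fell in all. Sqle, an oxygenase of sterol synthesis, had 14.7, 12.5 and 9.91 CPM in splenic CD8 libraries, against 80.1, 91.8 and 59 CPM in thymic CD8SP libraries, and its log2 fold change was -2.64 ± 0.25 (edgeR adjusted p = 0.00104).

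Respiratory chain genes fell in part. Of 23 tested, 11 fell and 1 rose, against 20.1% and 17.2% of all genes, with a median log2 fold change of -0.70. Without splenic replicate 1, 13 fell, and between 4 and 7 fell when any other single library was left out. Cox7a2, a subunit of cytochrome oxidase, had 20.8, 24.5 and 27.5 CPM in splenic CD8 libraries, against 57.8, 59 and 50.9 CPM in thymic CD8SP libraries, and fell, with a log2 fold change of -1.20 ± 0.18 (edgeR adjusted p = 0.00434). Ppargc1a, a coactivator of mitochondrial genes, was the member that rose, but it had 2.68, 0.463 and 0.571 CPM in splenic CD8 libraries, against 1 count in the thymic ones, and its call was lost without splenic replicate 1 or thymic replicate 1 or 3. Of 20 glycolysis and hypoxia genes, 2 rose and 5 fell, shares near those of all genes, 17.2% and 20.1%, and without splenic replicate 1, 6 rose and 8 fell. Between 1 and 3 fell when any other single library was left out. Those that rose were the glucose transporters Slc2a1, with 45.8, 70.8 and 72.2 CPM in splenic CD8 libraries, against 26.2, 24.6 and 31.4 CPM in thymic CD8SP libraries, and Slc2a3. Their log2 fold changes were 1.20 ± 0.23 (edgeR adjusted p = 0.0102) and 1.10 ± 0.18 (edgeR adjusted p = 0.00594), while that of the enzyme Tpi1, which fell, was -1.54 ± 0.31 (edgeR adjusted p = 0.0117).

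Ribosomal protein genes depended on 1 library. Of 32 tested, 3 rose with all libraries and 29 rose without splenic replicate 1, against 17.2% and 19.6% of all genes. None fell. All 32 were lower in splenic replicate 1 than in both other splenic libraries, and their sum was 28549.9, 64186 and 70954 CPM in splenic CD8 libraries, against 30757, 37969 and 28222 CPM in thymic CD8SP libraries. The median log2 fold change was 0.78 with all libraries and 1.07 without replicate 1. When any other single library was left out, 0 or 1 rose. Ribosomal protein genes have many near-identical copies, so counts of single members are uncertain.

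Regulators of cell death and of the cell cycle brake were called about as often as genes in general, of which 17.2% rose and 20.1% fell. Of 19 BCL2 family and cell death genes, 5 rose and 3 fell, and of 20 CDK inhibitors and p53 targets, 1 rose and 4 fell; without splenic replicate 1 these were 5 and 5, and 2 and 5. Leaving out thymic replicate 1, 2 or 3 or splenic replicate 2 cut the 5 cell death genes that rose to 1 or 2. Leaving out thymic replicate 3 or splenic replicate 2 or 3 cut the 3 that fell to 1. The 4 CDK inhibitors and p53 targets that fell became 1 without thymic replicate 1 and 2 without thymic replicate 2 or splenic replicate 2 or 3, and the 1 that rose became 2 without thymic replicate 3. Bcl2l1, the survival protein BCL-xL of DP cells, had 15, 43.8 and 43.4 CPM in splenic CD8 libraries, against 113, 95.9 and 268 CPM in thymic CD8SP libraries, and fell, with a log2 fold change of -2.23 ± 0.57 (edgeR adjusted p = 0.0243), a call lost without thymic replicate 3, at -1.63, or splenic replicate 2 or 3. Bcl2, given above, moved the other way. Bcl2l11, the death protein BIM, overlapped between groups at a log2 fold change of -0.08 ± 0.30 (edgeR adjusted p = 0.848). Cdkn2c, the inhibitor p18, had 9.92, 6.13 and 5.24 CPM in splenic CD8 libraries, against 136, 122 and 103 CPM in thymic CD8SP libraries and fell, with a log2 fold change of -4.08 ± 0.31 (edgeR adjusted p = 0.00057). Pmaip1, the death protein NOXA, had 47.6, 15.3 and 17.2 CPM in splenic CD8 libraries, against 3.88, 3.92 and 1.29 CPM in thymic CD8SP libraries, was highest in splenic replicate 1 and rose, with a log2 fold change of 3.13 ± 0.64 (edgeR adjusted p = 0.0119), and 2.42 without that library.

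Of 17 Notch receptors and targets, 4 rose and 6 fell, against 17.2% of all genes that rose and 20.1% that fell, with 4 and 8 without splenic replicate 1, and 3 fell without thymic replicate 1. Leaving out any 1 thymic library or splenic replicate 2 or 3 left 2 that rose. Notch3, a target and receptor of early thymocytes, had 2.83, 1.04 and 2.29 CPM in splenic CD8 libraries, against 106, 147 and 239 CPM in thymic CD8SP libraries, and fell, with a log2 fold change of -6.30 ± 0.52 (edgeR adjusted p = 0.000705). Notch2 had 497, 197 and 159 CPM in splenic CD8 libraries, against 60.3, 43 and 48.9 CPM in thymic CD8SP libraries, was highest in splenic replicate 1 and rose, with a log2 fold change of 2.49 ± 0.47 (edgeR adjusted p = 0.00884), and 1.81 without that library. Notch1, which directs T-lineage commitment, had 131, 318 and 339.5 CPM in splenic CD8 libraries, against 943, 729 and 905 CPM in thymic CD8SP libraries; it fell, with a log2 fold change of -1.71 ± 0.38 (edgeR adjusted p = 0.0162), a call lost without thymic replicate 1. Lfng, which adds sugars that tune Notch receptors, had 114, 371 and 369.8 CPM in splenic CD8 libraries, against 41.3, 33.6 and 20.4 CPM in thymic CD8SP libraries and rose, with a log2 fold change of 3.16 ± 0.53 (edgeR adjusted p = 0.00601).

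Among genes tied to T-cell leukaemia, 4 of 23 tested rose and 7 fell, against 17.2% of all genes that rose and 20.1% that fell. These were 5 and 8 without splenic replicate 1, and 2 rose when any 1 thymic library was left out. Ezh2, the histone methyltransferase of Polycomb complex PRC2, had 34.7, 18.6 and 18.3 CPM in splenic CD8 libraries, against 446, 415 and 275 CPM in thymic CD8SP libraries, and fell, with a log2 fold change of -3.99 ± 0.37 (edgeR adjusted p = 0.000957). The log2 fold change of its partner Suz12 was -1.39 ± 0.21 (edgeR adjusted p = 0.00441), that of the plant-homeodomain protein Phf6 -1.07 ± 0.18 (edgeR adjusted p = 0.00574), and that of the DNA methyltransferase Dnmt3a -1.31 ± 0.25 (edgeR adjusted p = 0.00952). All 3 fell. Of 14 stem and progenitor factors tested, 5 rose and 2 fell, beside the same shares of all genes, and without splenic replicate 1, 3 rose. Without thymic replicate 1 there was 1, without thymic replicate 2 there were 8, without thymic replicate 3 there were 2 and without splenic replicate 3 there were 3 that rose. Those that rose included Mef2c, a factor of B and myeloid cells, with 288, 40.7 and 25.5 CPM in splenic CD8 libraries, against 0.612, 1.42 and 0.0459 CPM in thymic CD8SP libraries, which was highest in splenic replicate 1. Myb, a factor of progenitors and DP cells, had 53.3, 44.9 and 32.5 CPM in splenic CD8 libraries, against 499, 608 and 862 CPM in thymic CD8SP libraries, and fell, with a log2 fold change of -3.91 ± 0.32 (edgeR adjusted p = 0.000705).

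Partners of LMO2 were lower in splenic cells where they were called. Of 13 tested, none rose and 5 fell, against 20.1% of all genes that fell, and 6 fell without splenic replicate 1, against 23.8%. The median log2 fold change was -0.73. Tcf3, the E protein E2A, had 158, 156 and 167 CPM in splenic CD8 libraries, against 299.5, 355 and 328 CPM in thymic CD8SP libraries and fell, with a log2 fold change of -1.03 ± 0.16 (edgeR adjusted p = 0.00471). Ssbp3 and Ssbp2, which stabilise the bridge that LMO2 builds, fell too, with log2 fold changes of -1.72 ± 0.31 (edgeR adjusted p = 0.00738) and -2.20 ± 0.50 (edgeR adjusted p = 0.0167). Lmo4, a related LIM protein, fell, with a log2 fold change of -1.25 ± 0.23 (edgeR adjusted p = 0.00802). Ldb1, the scaffold of the complex, had 193, 313 and 313 CPM in splenic CD8 libraries, against 260.2, 286 and 394 CPM in thymic CD8SP libraries, and its log2 fold change was -0.20 ± 0.27 (edgeR adjusted p = 0.588). Lyl1, a basic helix-loop-helix partner, had 83.1, 14.5 and 9.29 CPM in splenic CD8 libraries, against 1.5, 30.9 and 2.39 CPM in thymic CD8SP libraries. It was high in splenic replicate 1 and thymic replicate 2, the libraries with the highest sums of B-cell or mast-cell markers in their groups, and was not called, with a log2 fold change of 1.62 ± 1.34 (edgeR adjusted p = 0.369), and 0.04 without splenic replicate 1.

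Of 14 genes that earlier results of these data had shown to be raised in transgenic double-negative thymocytes, the stage before DP cells, 11 were tested, none rose, 3 fell and 8 were not called, with a median log2 fold change of -2.44, against 20.1% of all genes that fell. When splenic replicate 1 was left out, 4 fell, against 23.8%. The 3 that fell were Tbx4, Faxc and Cdkn2a, and the call of Faxc was lost without thymic replicate 1 or any 1 splenic library, that of Cdkn2a without thymic replicate 1 or 2. Tbx4, a T-box transcription factor known from limb development, had 3.09, 3.82 and 3.19 CPM in splenic CD8 libraries, against 29.99, 42.7 and 36 CPM in thymic CD8SP libraries, and 0.047, 0 and 0 CPM in wild-type CD8SP libraries. It was present in every transgenic library, lower in spleen without overlap, and fell, with a log2 fold change of -3.43 ± 0.24 (edgeR adjusted p = 0.000537). Yap1 and Myh10 are not among the 14 and were chosen after their values were seen. Yap1, the coactivator of the Hippo pathway, had 0.34, 0.116 and 0.333 CPM in splenic CD8 libraries, against 45.5, 57.4 and 26 CPM in thymic CD8SP libraries, and 0.376, 0.51 and 0.167 CPM in wild-type CD8SP libraries. Its splenic values lay at the level of the wild-type thymic ones, and it fell, with a log2 fold change of -7.28 ± 0.53 (edgeR adjusted p = 0.000537). Myh10, a nonmuscle myosin, had 2.6, 3.59 and 2.91 CPM in splenic CD8 libraries, against 192, 172 and 108 CPM in thymic CD8SP libraries, and fell, with a log2 fold change of -5.70 ± 0.32 (edgeR adjusted p = 0.000496). The calls of Tbx4, Yap1 and Myh10 were made in all 6 fits that left out 1 library. Lmo2 itself, given above, was not called. Hhex, Nfe2 and Erg, factors of progenitors, were raised among the thymic libraries mainly in replicate 2, as the values of Erg show, with 0.453, 0.0578 and 0.19 CPM in splenic CD8 libraries, against 0.85, 9.6 and 0.138 CPM in thymic CD8SP libraries.

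The largest increases were mostly genes of other blood cells. They were S100a9, Ngp, S100a8, Ltf, H2-Q8, Csf3r, Cr2, Dmrta1, Fn1, Adgre4, Ms4a1 and Mmp9, and 11 of the 12 had a wild-type CD8SP mean under 1 CPM. S100a9, a calcium-binding protein of granulocytes, had 225, 1.79 and 12.2 CPM in splenic CD8 libraries, against 0 counts in the thymic ones, so it was at least 1996-fold higher against a floor of 3 counts over the group. Ngp, a granule protein, was at least 1418-fold higher, S100a8 at least 894-fold and Ltf at least 725-fold, all highest in splenic replicate 1. Without that library these limits were 176-fold for S100a9, 539-fold for Ngp, 92.4-fold for S100a8 and 315-fold for Ltf. Cr2, a complement receptor of B cells, had 807, 80.6 and 56.9 CPM in splenic CD8 libraries, against 0.17, 0.0835 and 0.138 CPM in thymic CD8SP libraries, and the values of Ms4a1 are given above. Both were highest in splenic replicate 1, and they rose, with log2 fold changes of 11.16 ± 1.59 (edgeR adjusted p = 0.00372) and 9.83 ± 1.34 (edgeR adjusted p = 0.00321). These were 8.96 for Cr2 and 8.03 for Ms4a1 without splenic replicate 1, and 11.78 and 10.44 without splenic replicate 3. The calls of S100a8, S100a9, Csf3r, Fn1, Adgre4 and Mmp9 were each lost when any thymic library was left out, and those of S100a8 and S100a9 also without splenic replicate 3.

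One of these genes had another profile. Dmrta1, a DM-domain transcription factor, had 2.57, 38.6 and 34.1 CPM in splenic CD8 libraries and was lowest in replicate 1, as the T-cell genes were. It had 1 count in the thymic libraries, for a ratio of 1685 with a counting interval of 302 to 66594. Of the markers tested, 12 of 16 for B cells, 17 of 18 for macrophages and 8 of 8 for granulocytes rose, and none fell. Of all genes, 17.2% rose. Without splenic replicate 1, the marker counts were 12, 12 and 8, against 19.6% of all genes. The 12 granulocyte markers summed to at most 0.25 CPM in thymic libraries. The 8 tested had enough counts only through the splenic libraries, so they could only rise or stay uncalled. The same held for the B-cell marker Cr2, whose values are given above. It also held for the macrophage marker Cd14, with 926 counts in the splenic libraries and 2 in the thymic ones. The macrophage markers that rose numbered 1 without thymic replicate 1 or 3 and 7 without thymic replicate 2. The granulocyte markers that rose numbered 3 when any 1 thymic library was left out.

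Between splenic CD4 and thymic CD4SP cells of the same genotype, 1818 genes rose (13.9%) and 1994 fell (15.2%) of 13093 tested. Whether the change of a gene differs between CD8 and CD4 cells was put to an interaction term in a fit of 12 libraries. Of 13093 genes, 3 were called (0.0229%), all with a lower change in CD8 cells, and 826 had an unadjusted p under 0.05, while DESeq2 called 122. Angptl2, a secreted glycoprotein, had 1.36, 1.8 and 2.56 CPM in splenic CD8 libraries, against 71.8, 69.3 and 84.8 CPM in thymic CD8SP libraries, on the scale of the 12 libraries. In splenic CD4 libraries it had 95.8, 85.6 and 32 CPM, against 74.6, 75.6 and 61.2 CPM in thymic CD4SP libraries. The splenic CD8 libraries were low and the other groups overlapped, with a difference of -5.35 ± 0.54 (edgeR adjusted p = 0.0101) between the log2 fold changes. The number of calls depended on single libraries, with 0 without thymic CD4SP replicate 1 or 3, 17 without thymic CD4SP replicate 2, 14 without splenic CD8 replicate 1, and 1 without thymic CD8SP replicate 1 or 2, splenic CD4 replicate 1 or 2 or splenic CD8 replicate 3.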

How the data were processed

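RNA-seq libraries were grouped by their labels. The deposited table holds whole-number read counts per gene for 19521 genes, made by the authors; MACS2, HISAT, Bowtie2 and DESeq2 are listed in the submitters' processing notes, with genome builds mm9 and mm10, and their roles are not stated there. The table also holds 4 columns of per-sample values, 2 of them counts, of samples not analysed here. Peak lists were not used.

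From the counts of the 6 libraries, edgeR 4.0.16 in R 4.3.3 was run with filterByExpr (minimum count 10, minimum total 15), TMM factors and robust quasi-likelihood tests over 12185 genes, with Benjamini-Hochberg adjustment at 0.05 and a prior count of 0.125. The standard error is the log2 fold change divided by the root of its F statistic. Group means of CPM include wild-type CD8SP libraries on the same scale. With 3 against 3 libraries, an exact permutation test of a single gene could not go below 0.1 two-sided, so none is given. Depth was 17935725 to 28820075 counts, and counting intervals and the floor of 3 counts cover counting error only. Same-numbered libraries deviated together at correlations of -0.15, -0.154 and 0.0263, which gave no sign that the numbers pair the samples. Libraries of a group differed in markers of other cell types, so these correlations could not exclude a pairing.

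The members, the 34 gene lists and the tests were chosen with earlier results of these data known. The genes named are Lmo2, Cd3e, Cd8a, Cd8b1 and Cd4; the 12 largest increases and 12 largest decreases among called genes without overlap and with at least 10 CPM on average; in each list up to 4 called members, taken by smallest adjusted p; and, for the interaction, called genes of at least 10 CPM. Predicted genes, receptor segments and pseudogenes were left out, and members of a list with a defining role could be given whether called or not. All other genes with values, among them Tbx4, Yap1, Myh10, Erg, Hhex, Ppargc1a and Gpr25, were chosen after their values were seen. Some genes are not reported here.

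The fit was tested on simulated counts of 12061 genes for this comparison, where it recovered 4.41% of 68 genes changed by 1 on the log2 scale, 57.8% of 64 changed by 2 and 86.2% of 65 changed by 4, with 8 false calls among 104. Alternatives were DESeq2 1.42.0, its size factors, library totals, no filter, a replicate block, a fit of all RNA libraries and leaving out each library. A term for the column suffix N and leaving out splenic replicate 1 with thymic replicate 3 were added after seeing the data. Promoters were matched by gene identifier in RefSeq on build GRCm38.p6. Of the called genes, 33 of 39 cell cycle genes, 12 of 17 interferon-stimulated genes and 10 of 11 class I genes had one.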

Additional observations from a re-analysis of the deposited data

Results flagged for a closer look

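The change between spleen and thymus differed between CD8 and CD4 cells by the interaction test for 3 genes. Angptl2, whose values are given above, differed by -5.35 ± 0.54 on the log2 scale (edgeR adjusted p = 0.0101). Gpr25, an orphan receptor of lymphocytes with a mean of 8.76 CPM over the 12 libraries, had 0.718, 0.124 and 0.41 CPM in splenic CD8 libraries, against 30.1, 36.7 and 18.4 CPM in thymic CD8SP libraries. In splenic CD4 libraries it had 4.1, 3.38 and 2.18 CPM, against 2.61, 2.56 and 3.86 CPM in thymic CD4SP libraries, and the difference was -6.17 ± 0.74 (edgeR adjusted p = 0.0278). Pdlim4, a PDZ and LIM domain protein, had 3.23, 0.745 and 0.769 CPM in splenic CD8 libraries, against 15.1, 4.65 and 5.24 CPM in thymic CD8SP libraries. In splenic CD4 libraries it had 29.1, 33.7 and 57 CPM, against 1.6, 1.48 and 1.29 CPM in thymic CD4SP libraries, and the difference was -7.18 ± 0.95 (edgeR adjusted p = 0.0478). Angptl2 was low in splenic CD8 libraries, and its other groups overlapped. Gpr25 was also low in splenic CD8 libraries, but it was highest in thymic CD8SP ones and had 2.18 to 4.1 CPM in the CD4 libraries. Pdlim4 was highest in splenic CD4 libraries.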

How the results depend on the processing

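The count of 4546 called genes stayed within 1.5 times under DESeq2 size factors (4458), library totals (4460), no filter (4346), DESeq2 (5426) and the suffix term (5232). It was 7722 in a fit of all RNA libraries and ranged from 2626 without thymic replicate 1 (2982 without splenic replicate 2) to 5354 without splenic replicate 1. The replicate block gave 3242 (1425 higher, 1817 lower). No splenic library correlated best with the thymic library of its own number, which does not exclude a pairing. Of 140 called genes named, 16 lost their call with the block, between 4 and 27 without 1 library, 10 with DESeq2, 8 with no filter and at most 4 under each other alternative. The 3 interaction calls became 1 with library totals, 122 with DESeq2, 0 with the replicate block, 2 with size factors, 4 with no filter, and 0 to 17 without 1 library. Genes of the sort changed sign. Cd3e had a log2 fold change of 0.01287 with DESeq2 size factors, 0.01294 with DESeq2, 0.01791 in the fit of all libraries, 0.4897 without splenic replicate 1 and thymic replicate 3, where it was called, and -0.3433 to 0.4244 without 1 library. Cd8a had 0.05938 without those 2 libraries, Cd8b1 -0.1595 with the suffix term, and Lmo2 -0.1717 to 0.5855 without 1 library. The cause of these shifts was not tested. Genes changed by 1 on the log2 scale were rarely recovered in simulated data, so small changes that were not called may be missed with 3 libraries a group. The simulation changed far fewer genes than were called in the data. Its adjusted threshold was therefore stricter, and the shares recovered there need not hold here.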

Other observations

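Genes of the CD4 lineage and of regulatory T cells moved in both directions, with 4 of 12 higher and 3 lower in splenic CD8 cells, against 17.2% and 20.1% of all genes, or 2 and 3 without splenic replicate 1. Between 0 and 2 rose when any other single library was left out, and 1 fell without thymic replicate 1 or 2 or splenic replicate 2 or 3. Ikzf2, the factor Helios, had 18.5, 13.4 and 14.3 CPM in splenic CD8 libraries, against 178, 93.5 and 90.4 CPM in thymic CD8SP libraries, and fell in every fit that left out 1 library, with a log2 fold change of -2.97 ± 0.33 (edgeR adjusted p = 0.00164). Zbtb7b, the factor ThPOK of CD4 lineage choice, had 78.2, 25.9 and 31 CPM in splenic CD8 libraries, against 0.544, 4.97 and 2.48 CPM in thymic CD8SP libraries, was highest in splenic replicate 1 and rose, with a log2 fold change of 4.08 ± 0.86 (edgeR adjusted p = 0.0133), a call lost without thymic replicate 3. The Zbtb7b value was 3.42 without splenic replicate 1 and 5.02 without thymic replicate 2. Foxp3, the factor of regulatory T cells, had 4.53, 1.74 and 3.24 CPM in splenic CD8 libraries, against 0.918, 0.167 and 0.689 CPM in thymic CD8SP libraries, and its call was lost in each of the 6 fits that left out 1 library. Sox13, a factor of gamma-delta T cells, had 0.302, 0.174 and 0.0952 CPM in splenic CD8 libraries, against 7.92, 46 and 8.18 CPM in thymic CD8SP libraries, and its log2 fold change was -6.69 ± 1.02 (edgeR adjusted p = 0.00456), and -5.23 without thymic replicate 2.

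Markers of red cells and platelets summed to 197, 669.5 and 423 CPM in splenic CD8 libraries, against 33, 77.1 and 179.8 CPM in thymic CD8SP libraries. Of 9 tested, 5 rose, against 17.2% of all genes. The count was 3 without thymic replicate 1, 9 without thymic replicate 3 and 10 without splenic replicate 1, where more members were tested. Tested members with 0 counts in all thymic libraries, such as Slc4a1, could only rise or stay uncalled. Ppbp, a chemokine of platelets, had 0.905, 6.07 and 4.1 CPM in splenic CD8 libraries and 0 counts in the thymic ones, and it was lowest in splenic replicate 1, unlike the B-cell and myeloid markers. Blk, a kinase of B cells and some gamma-delta cells, had 233, 38.4 and 26.6 CPM in splenic CD8 libraries, against 2.24, 3.8 and 2.8 CPM in thymic CD8SP libraries. Of 15 heat-shock genes, Hsp90aa1 alone was called, with 390.3, 465 and 569 CPM in splenic CD8 libraries, against 1520.3, 1909 and 648 CPM in thymic CD8SP libraries; its call was lost when any 1 library other than thymic replicate 3 was left out. Of 10 dendritic cell markers, 1 rose and 1 fell with all libraries, against 17.2% and 20.1% of all genes, and 7 rose without thymic replicate 2. Siglech, a receptor of plasmacytoid dendritic cells, was the one that rose, with 74.5, 11.6 and 15.4 CPM in splenic CD8 libraries, against 1.16, 3.72 and 0.0919 CPM in thymic CD8SP libraries. Of 4 thymic stroma markers tested, 1 rose with all libraries, and 0 rose without thymic replicate 1 or 3. Of 3 mast cell markers, Hdc rose and Cpa3 fell, calls that were lost when any 1 thymic library was left out for Hdc and any 1 splenic library for Cpa3.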
